A study of Mus musculus with 12 samples.

Results

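The mRNAs of 8 receptors of the tumour necrosis factor (TNF) receptor superfamily were followed in gradient pools of 4T1 cells, out of 55376 genes in the count file. The 8 were Tnfrsf26, Tnfrsf22 and Tnfrsf23, which lie side by side on chromosome 7, and Tnfrsf1a, Tnfrsf10b, Tnfrsf21, Fas and Tnfrsf12a, which lie on other chromosomes. Tnfrsf26 was chosen because its mRNA was much higher in the METTL7A1 libraries, so its level in that comparison is described here without a test. The other 7 were chosen by position next to Tnfrsf26 or by family, with earlier results of these data known. The question was whether they follow Tnfrsf26. All 8 had at least 1 CPM (counts scaled to a common library size) in all 12 libraries and were tested.

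The 4T1 line comes from a mouse mammary gland tumour. Stable lines had been made with an empty vector (mock) or with a vector that carries the full-length Mettl7a1 cDNA with a FLAG tag under a CMV promoter (METTL7A1). The sources used here do not say whether either line was 1 clone or a pool. Both genotypes received cycloheximide at 0.1 mg/ml for 5 min, which holds ribosomes on mRNA, before lysis and centrifugation through sucrose. RNA of fractions 3 to 7, with free ribosomal subunits and single ribosomes, gave the sub-polysomal libraries, and RNA of fractions 8 to 11, with polysomes, gave the polysomal libraries. Genotype and pool together made 4 groups of 3 libraries each, lettered A, B and C in mock cells and D, E and F in METTL7A1 cells. The study describes its gradients as run on biological triplicates, while the labels do not tie the letters to separate cultures; the p-values measure the spread between these libraries.

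Receptors of this superfamily bind trimeric ligands through cysteine-rich repeats outside the cell. Some carry a death domain inside the cell, which recruits adaptors such as FADD and TRADD and can lead to caspase-8 activation or to NF-kB signalling, while others lack it and signal through TRAF proteins or act as decoys that bind ligand without passing on a death signal. Among the 8, only Tnfrsf1a (TNF receptor 1), Tnfrsf10b (the mouse TRAIL death receptor), Tnfrsf21 (death receptor 6) and Fas carry a death domain. Tnfrsf22 and Tnfrsf23 are decoy receptors for TRAIL, Tnfrsf26 is their close relative, and Tnfrsf12a (Fn14) is the receptor for TWEAK, so "death receptor" describes only 4 of the 8 genes.

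In GRCm38 coordinates, as the count file gives them, Tnfrsf26 spans 143607659 to 143628722 of chromosome 7, Tnfrsf22 spans 143634806 to 143649661 and Tnfrsf23 spans 143667614 to 143685872, all on the minus strand. Between Tnfrsf26 and Tnfrsf22 lie 6083 bases, and between Tnfrsf22 and Tnfrsf23 lie 17952 bases. Because relatives with near-identical exons can share reads, exon 3 of each gene, a coding exon of 129 bases in all of them, is shown 5′ to 3′ from the GENCODE M21 transcripts. It lies at chr7:143618310-143618438 in Tnfrsf26, at chr7:143643276-143643404 in Tnfrsf22 and at chr7:143679945-143680073 in Tnfrsf23. Capitals mark in Tnfrsf26 the 58 bases that are the same in all 3 genes, and in Tnfrsf22 and Tnfrsf23 the 8 positions at which the latter genes differ.
Tnfrsf26 exon 3: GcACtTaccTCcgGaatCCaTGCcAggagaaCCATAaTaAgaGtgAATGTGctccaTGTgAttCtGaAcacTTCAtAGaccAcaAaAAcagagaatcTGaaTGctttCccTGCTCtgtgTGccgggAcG
Tnfrsf22 exon 3: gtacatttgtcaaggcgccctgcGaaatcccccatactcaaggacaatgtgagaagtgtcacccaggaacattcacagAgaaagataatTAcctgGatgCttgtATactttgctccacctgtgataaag
Tnfrsf23 exon 3: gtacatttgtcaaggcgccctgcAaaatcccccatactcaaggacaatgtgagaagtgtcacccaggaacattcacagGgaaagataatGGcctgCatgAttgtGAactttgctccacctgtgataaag

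Tnfrsf22 and Tnfrsf23 were 93.8% identical over this exon, with 54 bases in a row the same, whereas Tnfrsf26 differed from each of them at 69 of 129 positions and shared at most 6 bases in a row with either. Exon 4, of 112 bases, gave the same picture, with 11 differing bases between Tnfrsf22 and Tnfrsf23 and 53 and 54 between Tnfrsf26 and these genes. Over all protein-coding transcripts, 0 of the 3168 stretches of 50 bases of Tnfrsf26 occurred in either neighbour. Tnfrsf22 and Tnfrsf23 shared 426 such stretches, which is 10.3% of those of Tnfrsf22 and 28.9% of those of Tnfrsf23. Stretches of that length thus told Tnfrsf26 apart from its neighbours, while the counts of Tnfrsf22 and Tnfrsf23 depend on how reads common to both were treated, which the sources used here do not state.

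Library totals lay between 1817520 and 6966156 counts, so that 3 counts stood for 0.431 to 1.65 CPM. Counts of Mettl7a1 were 4 to 24 per mock library and 989 to 2436 per METTL7A1 library, as labelled; counts from the vector and from the gene on chromosome 15 cannot be told apart. Mitochondrial transcripts made up 4.37% to 8.49% of sub-polysomal and 0.684% to 2.14% of polysomal counts. The 7 epithelial markers summed to 2350 to 5020 CPM and were highest in METTL7A1 polysomal RNA (4460 to 5020 CPM), a difference whose part in the results was not tested. Of these, Cldn3, a tight junction claudin, was called higher in METTL7A1 cells in both pools, by a log2 change of 1.92 (SE 0.23) in polysomal and 1.95 (SE 0.23) in sub-polysomal RNA. With an adjusted p below 0.05, 4 of 7 rose and 0 fell in polysomal RNA by edgeR, against 9.69% and 8.28% of genes. In sub-polysomal RNA 2 rose and 2 fell, against 16.8% and 14.5%. Mean Epcam there was 369 CPM in mock and 225 CPM in METTL7A1 cells. The mesenchymal markers Vim and Fn1 summed to 727 to 758 CPM in mock and 545 to 593 CPM in METTL7A1 sub-polysomal RNA. Their polysomal sums overlapped, at 657 to 806 and 622 to 831 CPM. By contrast, the 7 leukocyte markers summed to at most 1.33 CPM and the 2 endothelial markers to at most 0.822 CPM, with Ptprc at 1 count and Pecam1 at 5 counts over all libraries. CPM values below were scaled with TMM factors. A pool is a share of the extract, and in such bulk RNA fewer cells with an mRNA and less of it per cell cannot be told apart.

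Tnfrsf26 was scarce in mock cells and abundant in METTL7A1 cells, in both pools. In mock sub-polysomal RNA it measured 4.52, 6.3 and 9.28 CPM, from only 8, 20 and 47 counts. Mock polysomal RNA gave 4.51, 6.6 and 6.45 CPM. The METTL7A1 libraries stood far above these, without overlap. Their sub-polysomal RNA held 176, 200.0 and 198 CPM, from 531 to 827 counts. Their polysomal RNA held 246, 216 and 223 CPM, from 1322 to 1797 counts. The group means differed 39-fold in polysomal and 28.6-fold in sub-polysomal RNA, and the lowest METTL7A1 library was still 32.7-fold and 19-fold above the highest mock library. The fitted log2 changes were 5.28 (SE 0.19) and 4.72 (SE 0.20), the 5th largest rise of 12224 tested genes in polysomal and the 7th in sub-polysomal RNA. Since these values chose the gene, they carry no test.

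**Figure D1:**
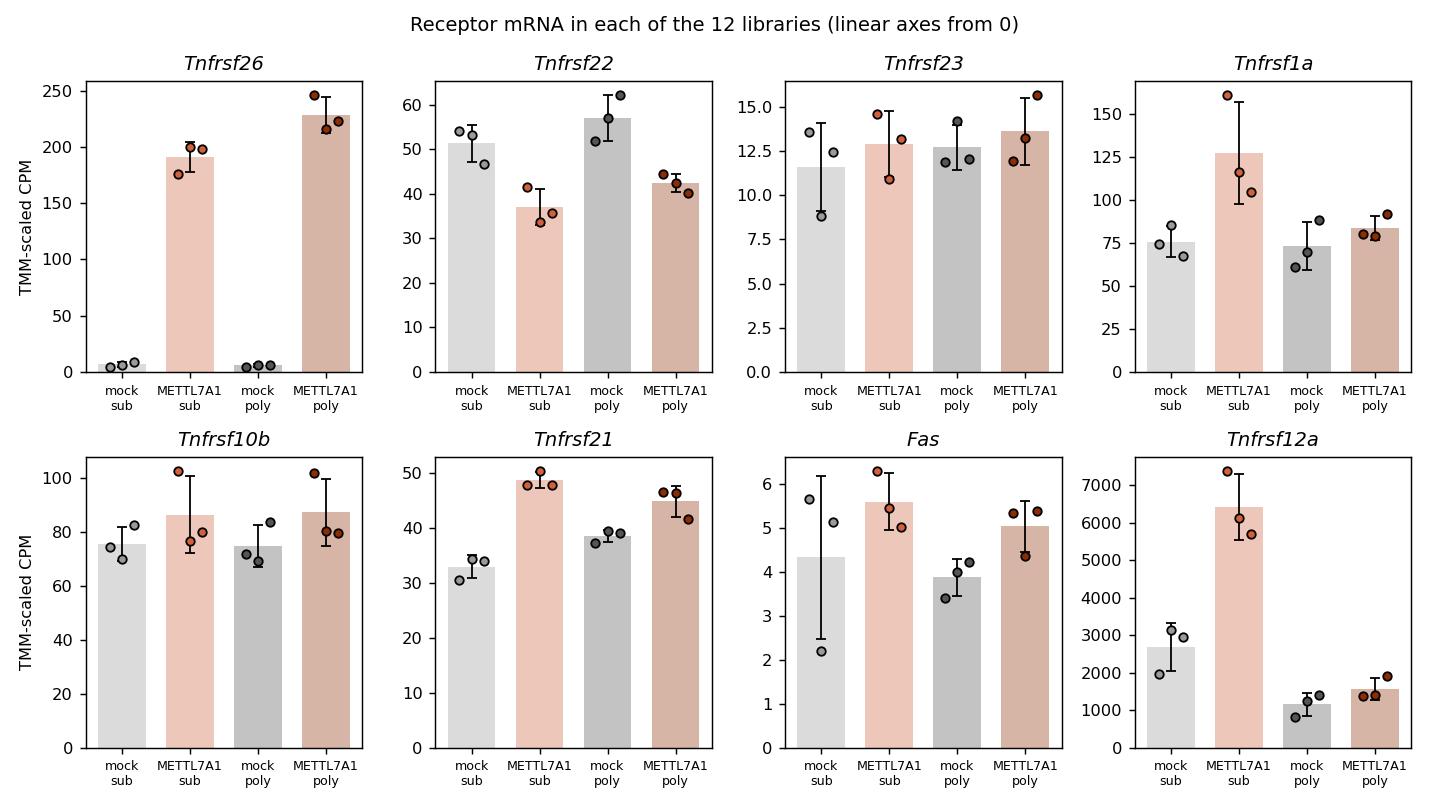
TMM-scaled CPM of each receptor mRNA in the 12 libraries, on linear axes that start at 0 and differ between panels; points are libraries, bars the mean of 3 libraries and whiskers the SD. Tnfrsf26 stands between 176 and 246 CPM in METTL7A1 cells and below 10 CPM in mock cells, Tnfrsf22 is lower in METTL7A1 cells in both pools, and Tnfrsf12a is highest in METTL7A1 sub-polysomal RNA.

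The adjacent decoy receptor Tnfrsf22 went the other way and by far less. Mock sub-polysomal RNA held 54.2, 53.2 and 46.6 CPM of it, and METTL7A1 sub-polysomal RNA 41.5, 33.8 and 35.6 CPM. Mock polysomal RNA held 51.9, 57.0 and 62.2 CPM, and METTL7A1 polysomal RNA 44.4, 42.5 and 40.3 CPM. In both pools every METTL7A1 library lay below every mock library. The log2 change was -0.43 (SE 0.13) in polysomal RNA, with an adjusted p of 0.0308 by edgeR's quasi-likelihood test with Benjamini-Hochberg adjustment over all tested genes, and -0.47 (SE 0.15, adjusted p = 0.0188) in sub-polysomal RNA. Neither size reached the log2 limit of 1.5 that a call also required. The adjusted p stayed below 0.05 in 6 of 14 alternatives in polysomal and 8 of 14 in sub-polysomal RNA; with the counts of Tnfrsf22 and Tnfrsf23 summed it was 0.0945 and 0.0736, and with scaling to Actb counts 0.187 and 0.387. Without replicate B, C, D, E or F it lay between 0.06 and 0.119 in polysomal RNA, and without replicate B, E or F between 0.0609 and 0.113 in sub-polysomal RNA.

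For Tnfrsf23, the other decoy receptor, no change was detected. It measured 13.5, 8.81 and 12.4 CPM in mock and 14.6, 10.9 and 13.2 CPM in METTL7A1 sub-polysomal RNA. Polysomal RNA held 11.9, 14.2 and 12.0 CPM in mock and 11.9, 13.2 and 15.7 CPM in METTL7A1 cells. The genotypes overlapped in both pools. The log2 change was 0.095 (95% interval -0.27 to 0.46, adjusted p = 0.757) in polysomal and 0.16 (95% interval -0.28 to 0.60, adjusted p = 0.603) in sub-polysomal RNA by the same edgeR test. The upper bounds lie far below the log2 change of Tnfrsf26 in either pool.

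Around the cluster, 40 genes lay within 500 kb on either side, 16 of them had counts and 13 were tested, the cluster included. Over the 10 tested genes outside the cluster, the log2 changes between genotypes had a median of -0.071 (polysomal) and 0.36 (sub-polysomal), against -0.014 and -0.002 over all tested genes. Both medians include the antisense gene E230032D23Rik described below, which could enter the test only through the METTL7A1 libraries. They are therefore not a like comparison with all genes. Cars, which encodes cysteinyl-tRNA synthetase and is the nearest tested gene on the other side of Tnfrsf26, was lower in METTL7A1 cells, and edgeR gave log2 changes of -0.55 (SE 0.15, adjusted p = 0.0147) for polysomal and -0.82 (SE 0.16, adjusted p = 0.000901) for sub-polysomal RNA. Dhcr7, which encodes the last enzyme of cholesterol synthesis, was higher, by 0.37 (adjusted p = 0.0443) and 0.51 (adjusted p = 0.00722) on the same scale. Phlda2, an imprinted gene, was higher in sub-polysomal RNA by 0.54 (adjusted p = 0.029), and its polysomal value was 0.32 (adjusted p = 0.259). Nap1l4, Osbpl5, Mrgpre, Nadsyn1, Slc22a18 and Shank2 did not pass an adjusted p of 0.05 in either pool, the last 2 on 107 and 51 counts in all.

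**Figure D2:**
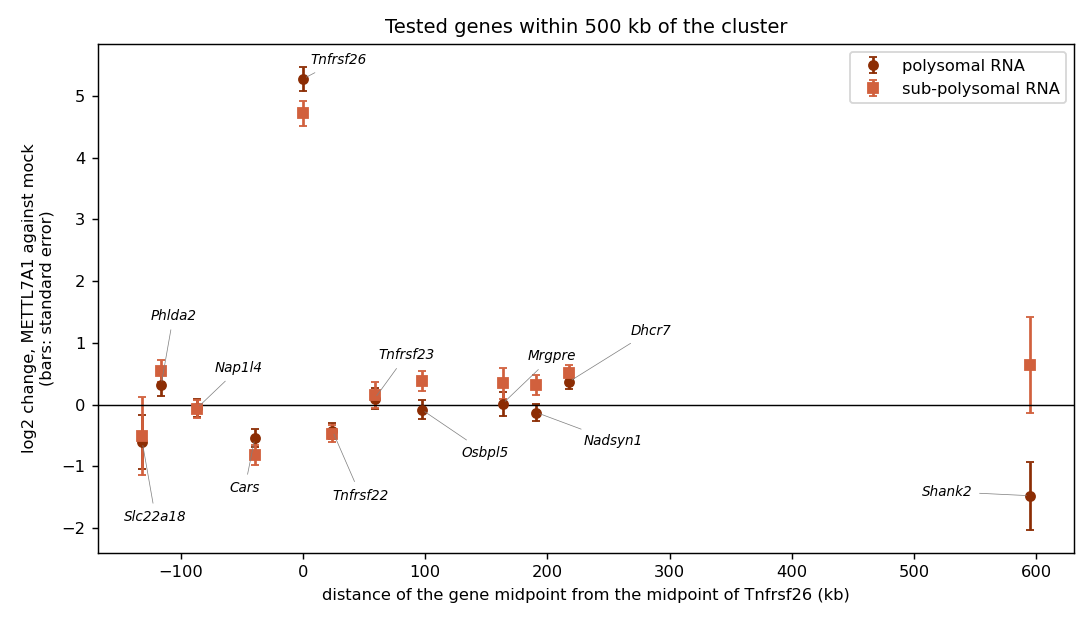
Log2 change between METTL7A1 and mock cells (vertical axis, with standard errors) of tested genes within 500 kb of the cluster, against the distance of each gene's midpoint from that of Tnfrsf26 in kb, for polysomal (circles) and sub-polysomal RNA (squares). Tnfrsf26 stands at 5.28 and 4.72, while Tnfrsf22 at -0.43 and -0.47, Tnfrsf23 at 0.095 and 0.16 and Cars at -0.55 and -0.82 lie far below it; the antisense gene E230032D23Rik is left out because its mock polysomal libraries held 0 counts.

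The remaining tested neighbour, E230032D23Rik, is an antisense gene that runs on the plus strand from 143628024 to 143670614 of chromosome 7, through Tnfrsf22 and into both other genes of the cluster. Its exons share 107 bases with those of Tnfrsf26, which are the whole first exon of the transcript Tnfrsf26-202, and 164 bases with those of Tnfrsf23. It had 0, 1 and 1 counts in mock sub-polysomal RNA and 0 in each mock polysomal library. METTL7A1 sub-polysomal RNA gave 8, 10 and 22 counts and METTL7A1 polysomal RNA 4, 5 and 3 counts. The METTL7A1 counts were higher in both pools, and this gene was the 1 of the 10 neighbours called. In these comparisons 2.76% and 2.13% of all tested genes were called. As its mock counts are at or near 0, it could enter the test only through the METTL7A1 libraries. The direction of its test was thus set by the filter, so no p-value is given and no conclusion is drawn from its call. Its counts were 1.24% to 2.66% of those of Tnfrsf26 in METTL7A1 sub-polysomal and 0.223% to 0.298% in METTL7A1 polysomal RNA. A strand setting for the counting is not given in the sources used here, so reads of Tnfrsf26 and of this antisense gene in the shared bases cannot be told apart.

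Among the receptors with a death domain, Tnfrsf1a and Tnfrsf21 were higher in METTL7A1 sub-polysomal RNA, and Tnfrsf10b and Fas showed no detected change in either pool. Their genes lie at 125349723 to 125362484 of chromosome 6 (Tnfrsf1a), 69767472 to 69784411 of chromosome 14 (Tnfrsf10b), 43016555 to 43089189 of chromosome 17 (Tnfrsf21) and 34290666 to 34327772 of chromosome 19 (Fas), all on the plus strand. Tnfrsf1a, the main receptor of TNF, measured 74.5, 85.3 and 67.3 CPM in mock and 161, 117 and 105 CPM in METTL7A1 sub-polysomal RNA. Its polysomal values were 61.3, 69.7 and 88.6 CPM in mock and 80.4, 78.8 and 91.8 CPM in METTL7A1 cells. The sub-polysomal groups did not overlap, with replicate D highest, and the polysomal groups did. The log2 change was 0.75 (SE 0.18, adjusted p = 0.00319) in sub-polysomal and 0.19 (SE 0.17, adjusted p = 0.475) in polysomal RNA by edgeR.

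Tnfrsf21, death receptor 6, varied little between replicates. Sub-polysomal RNA held 30.5, 34.3 and 33.95 CPM in mock and 47.8, 50.4 and 47.8 CPM in METTL7A1 cells. Polysomal RNA held 37.1 to 39.3 CPM in the 3 mock libraries and 46.4, 46.2 and 41.6 CPM in METTL7A1 cells. The genotypes did not overlap in either pool. The edgeR log2 change was 0.55 (SE 0.14, adjusted p = 0.00437) in sub-polysomal and 0.22 (SE 0.12, adjusted p = 0.238) in polysomal RNA, where the gap between the groups was small.

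Tnfrsf10b, which passes the TRAIL signal to caspase-8, measured 74.5, 69.9 and 82.5 CPM in mock and 103, 76.7 and 79.9 CPM in METTL7A1 sub-polysomal RNA. In polysomal RNA it measured 71.7, 69.1 and 83.6 CPM in mock and 102, 80.5 and 79.5 CPM in METTL7A1 cells. Replicate D was high in both pools and the other METTL7A1 libraries lay within the mock range. Its log2 change was 0.22 (95% interval -0.086 to 0.53, adjusted p = 0.327) in polysomal and 0.18 (95% interval -0.14 to 0.51, adjusted p = 0.383) in sub-polysomal RNA by edgeR.

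Fas, the receptor of Fas ligand, was the least abundant of the 4. Mock libraries held 5.64, 2.2 and 5.13 CPM in sub-polysomal and 3.41, 3.99 and 4.22 CPM in polysomal RNA. METTL7A1 libraries held 6.3, 5.46 and 5.02 CPM in sub-polysomal and 5.34, 4.37 and 5.39 CPM in polysomal RNA. With 7 to 39 counts per library, the intervals of the log2 change were wide, at 0.37 (95% interval -0.17 to 0.91, adjusted p = 0.356) in polysomal and 0.38 (95% interval -0.28 to 1.03, adjusted p = 0.382) in sub-polysomal RNA by edgeR. A log2 change of up to 1.03 lay within them.

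Tnfrsf12a, the TWEAK receptor, which lies on the minus strand of chromosome 17 from 23675445 to 23677468, was by far the most abundant of the 8. Mock sub-polysomal RNA held 1952, 3145 and 2961 CPM and METTL7A1 sub-polysomal RNA 7385, 6130 and 5694 CPM. Mock polysomal RNA held 816, 1239 and 1414 CPM and METTL7A1 polysomal RNA 1377, 1413 and 1900 CPM. The genotypes stood apart in sub-polysomal RNA, where the lowest METTL7A1 library was 1.81-fold above the highest mock library, and overlapped in polysomal RNA. In METTL7A1 sub-polysomal RNA this mRNA alone made up 0.46% to 0.607% of all counts and ranked between 11 and 18 among all genes by count. The log2 change was 1.25 (SE 0.23, adjusted p = 0.000484) in sub-polysomal and 0.44 (SE 0.23, adjusted p = 0.199) in polysomal RNA by edgeR. The sub-polysomal value fell short of the limit of 1.5 and passed it, at 1.53, only with scaling to Actb counts, which moved the median of all genes in that comparison from -0.002 to 0.259.

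Of the 7 receptors other than Tnfrsf26, then, 0 were called between genotypes in polysomal RNA, where 2.13% of all tested genes were, and 0 in sub-polysomal RNA, where 2.76% were, by edgeR and also by DESeq2 and limma-voom. At an unadjusted p below 0.05, 1 of 7 passed in polysomal and 4 of 7 in sub-polysomal RNA. The share of all genes at this unadjusted threshold is not given here. It is at least the 18% and 31.4% that passed an adjusted p of 0.05. With an adjusted p below 0.05 and no limit on size, 1 of 7 was lower and none was higher in polysomal RNA, against a background of 18% of genes in either direction, 8.28% lower and 9.69% higher. In sub-polysomal RNA 3 of 7 were higher and 1 was lower, against 31.4% in either direction, 16.8% higher and 14.5% lower. Over the mean of both pools 4 of 7 passed this threshold, against 39.3% of genes, and 0 were called, against 2.93%. An unadjusted p of 0.05 was also passed by 4 of 7 there, where the share of all genes is at least that 39.3%. The 7 had a median log2 change of 0.22 in the polysomal and 0.38 in the sub-polysomal comparison, against -0.014 and -0.002 over all genes. Groups that did not overlap were found in polysomal RNA for Tnfrsf21 and Fas (higher; 18.9% of all genes) and Tnfrsf22 (lower; 17.7%), and in sub-polysomal RNA for Tnfrsf1a, Tnfrsf21 and Tnfrsf12a (higher; 23.5%) and Tnfrsf22 (lower; 20.5%).

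**Figure D3:**
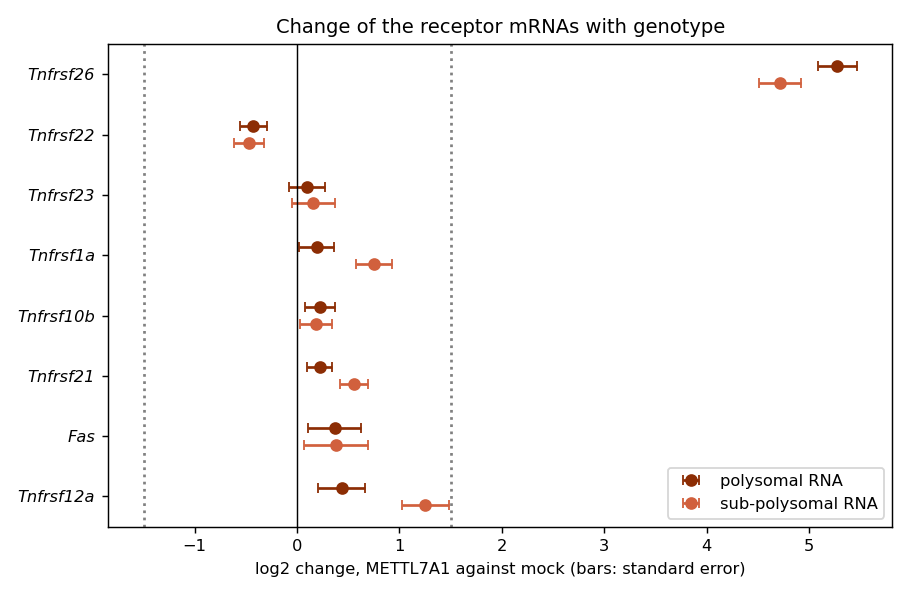
Log2 change between METTL7A1 and mock cells (horizontal axis, bars are standard errors) of the 8 receptor mRNAs in polysomal and sub-polysomal RNA; dotted lines mark the limit of 1.5 that a call required. Tnfrsf26 lies beyond 4.7 in both pools, Tnfrsf12a in sub-polysomal RNA comes next at 1.25, and the others lie between -0.47 and 0.75.

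Set per kilobase of exon, so that genes can be compared, the order of the levels changed at only a few places. In both mock pools it ran Tnfrsf12a, Tnfrsf1a, Tnfrsf10b, Tnfrsf22, Tnfrsf21, Tnfrsf23, Fas and Tnfrsf26. Mock sub-polysomal means ran from 2532 CPM per kilobase for Tnfrsf12a and 35.1 for Tnfrsf1a down to 2.41 for Fas and 2.08 for Tnfrsf26, and mock polysomal means from 1090 and 33.95 down to 2.16 and 1.82. Fas and Tnfrsf26 overlapped in both mock pools, as did Tnfrsf21 and Tnfrsf23 in mock sub-polysomal RNA, while the other neighbours in the order did not. In METTL7A1 cells Tnfrsf26 moved from the last place to the place after Tnfrsf12a, at 59.4 CPM per kilobase in sub-polysomal and 70.9 in polysomal RNA. There it overlapped with Tnfrsf1a (59.2 CPM per kilobase) in sub-polysomal RNA and lay above it (38.8 CPM per kilobase) in polysomal RNA. Tnfrsf22 dropped behind Tnfrsf21 and overlapped with Tnfrsf23 in both METTL7A1 pools, at 8.76 against 8.73 CPM per kilobase in sub-polysomal and 10.1 against 9.22 in polysomal RNA.

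Between the pools of 1 genotype, Tnfrsf12a was, of the 8, the receptor mRNA most concentrated in the sub-polysomal fractions. Its polysomal level was 0.43 of its sub-polysomal level in mock and 0.244 in METTL7A1 cells. The edgeR log2 changes were -1.22 (SE 0.23, adjusted p = 0.000284) and -2.03 (SE 0.23, adjusted p = 9.54e-07). The groups did not overlap in either genotype. In METTL7A1 cells 32.3% of all genes were lower in polysomal RNA without overlap, and the share in mock cells is not given here. In METTL7A1 cells it was the 1 of 8 mRNAs called, where 12.1% of genes were called and 10.3% were called lower. In mock cells 0 of 8 were called, where 7.55% of genes were, by edgeR and by DESeq2 and limma-voom. There 1 of 8 passed an unadjusted p of 0.05, while 5746 of 12224 tested genes passed even an adjusted p of 0.05 by edgeR.

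Tnfrsf1a was the other of the 8 receptor mRNAs with an adjusted p below 0.05 between pools. In METTL7A1 cells it was lower in polysomal RNA by a log2 change of -0.61 (SE 0.17, adjusted p = 0.00487 by edgeR), which was -0.38 (adjusted p = 0.114) without replicate D, and in mock cells it stood at -0.045 (adjusted p = 0.852). With Tnfrsf12a this made 2 of 8 lower in METTL7A1 cells, against 29.3% of genes, and 1 of 8 in mock cells, against 23.7%. Of 6 other tested receptor genes of the family, 3 were lower and 1 higher between METTL7A1 pools, and 0 passed between mock pools. In either direction, 7248 of 12224 tested genes passed between METTL7A1 pools and 5746 between mock pools. The 1 higher was Ngfr, which could enter the test only through the METTL7A1 polysomal libraries. By edgeR those lower were Ltbr at -1.01 (adjusted p = 7.62e-05), Relt at -0.61 (adjusted p = 0.00299) and Cd40 at -0.62 (adjusted p = 0.026). For Tnfrsf26 the log2 change between pools was -0.31 (95% interval -0.81 to 0.19, adjusted p = 0.299) in mock and 0.25 (95% interval -0.056 to 0.56, adjusted p = 0.146) in METTL7A1 cells. In METTL7A1 cells its polysomal libraries (246, 216 and 223 CPM) all lay above its sub-polysomal ones (176, 200 and 198 CPM). In mock cells the pools overlapped. The share of all genes with such a gap in that direction is not given here. The test detected no difference between the pools for Tnfrsf26 in either genotype.

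Tnfrsf21 crossed over. In mock cells all 3 polysomal libraries lay above all 3 sub-polysomal ones, as for 27.2% of genes, and in METTL7A1 cells all 3 lay below, as for 32.3% of genes. Neither difference passed the test, with log2 changes of 0.22 (adjusted p = 0.189) in mock and -0.12 (adjusted p = 0.428) in METTL7A1 cells by edgeR. Tnfrsf22, Tnfrsf23, Tnfrsf10b and Fas had log2 changes between -0.15 and 0.20 in either genotype, none with an adjusted p below 0.05.

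**Figure D4:**
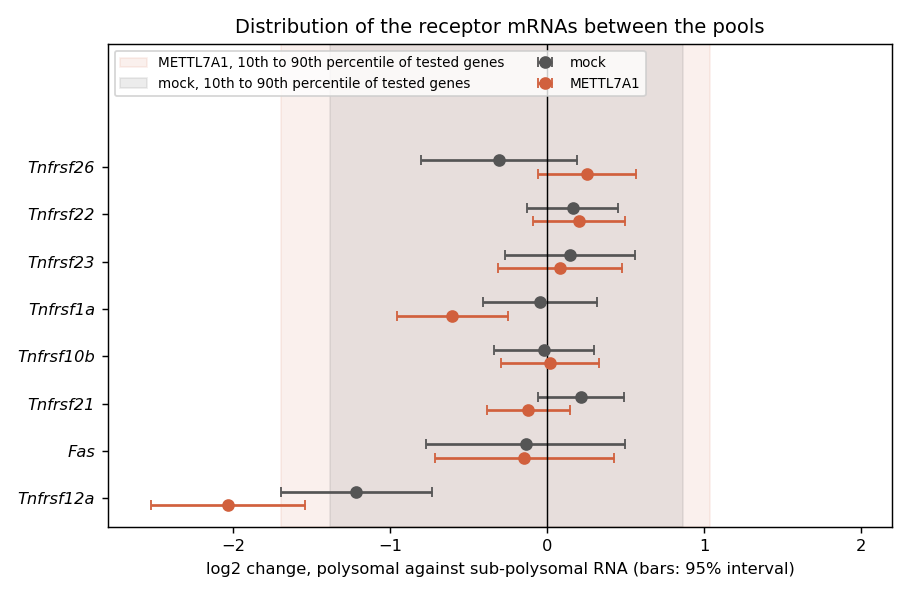
Log2 change from sub-polysomal to polysomal RNA (horizontal axis, bars are 95% intervals) of the 8 receptor mRNAs in mock and METTL7A1 cells, with the range from the 10th to the 90th percentile of all tested genes shaded for each genotype. Tnfrsf12a lies at -1.22 in mock cells and at -2.03 in METTL7A1 cells, the latter below the 10th percentile of -1.70, while the other 7 lie within both shaded ranges.

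Whether the genotype changed the distribution between pools was tested as the difference between these log2 changes, called the shift to polysomes. By edgeR 0 of 12224 genes and 0 of the 8 receptors were called (0%), and 0 genes passed an adjusted p of 0.05, the smallest being 0.0939, although 1911 genes (15.6%) and 2 of the 8 receptors had an unadjusted p below 0.05. DESeq2 called 1 gene of the whole table and limma-voom 0, none of them a receptor of the 8. The 2 receptors were Tnfrsf12a, with a shift of -0.82 (SE 0.32, adjusted p = 0.229), and Tnfrsf1a, with -0.56 (SE 0.24, adjusted p = 0.271). Tnfrsf26 stood at 0.56 (SE 0.28, adjusted p = 0.342) and Tnfrsf21 at -0.34 (SE 0.18, adjusted p = 0.386). The genotype differences of Tnfrsf1a, Tnfrsf21 and Tnfrsf12a, which passed in sub-polysomal RNA and not in polysomal RNA, were therefore not shown to differ between the pools.

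The genes whose log2 CPM followed Tnfrsf26 most closely over the 12 libraries, among 9456 genes with a mean of at least 5 CPM, were Fgfbp1 (Pearson r = 0.993), which encodes a fibroblast growth factor binding protein, Bmp7 (0.990), which encodes a bone morphogenetic protein, Mettl7a1 itself (0.989), Lrrn4cl (0.983) and Slc4a11 (0.978), which encodes a membrane transporter. The libraries fall into 2 genotypes, so any gene that differs strongly between them gives a high value, and r is given as a description only. Fgfbp1 rose from 26.2 to 37.5 CPM in the mock libraries to 175 to 268 CPM in the METTL7A1 libraries. Of the receptors, Tnfrsf21 had r = 0.872 with Tnfrsf26, Tnfrsf1a 0.614, Tnfrsf10b 0.581, Tnfrsf12a 0.437, Tnfrsf23 0.303 and Tnfrsf22 -0.858.

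The ligands of these receptors were scarce. Of 18 TNF superfamily ligand genes, 3 were tested. Tnfsf10, which encodes TRAIL, had at most 3 counts in any library and 13 in all. Fasl had 1 count in all 12 libraries together. Tnfsf12, which encodes TWEAK, was listed at 0, and 728 of its 1435 exon bases are shared with the overlapping gene Tnfsfm13, which had 2 counts. Tnf itself had 0 to 4 counts per mock library, 9 to 11 per METTL7A1 sub-polysomal and 6 to 12 per METTL7A1 polysomal library. It could enter the test only through the METTL7A1 libraries, so no p-value is given for it. Tnfsf9, the ligand of 4-1BB, was the most abundant of the ligands at 24.2 to 36.6 CPM, with log2 changes between genotypes of 0.11 and -0.063. Eda, the ectodysplasin gene, stood at -1.02 (adjusted p = 0.0442) in polysomal and -1.10 (adjusted p = 0.142) in sub-polysomal RNA.

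Of 20 other receptor genes of the family, 6 passed the filter. With an adjusted p below 0.05 between genotypes, 4 of these 6 were higher in polysomal and 5 of 6 in sub-polysomal RNA, with none lower, where 9.69% and 16.8% of all tested genes were higher. Their median log2 changes were 0.71 and 1.04, against -0.014 and -0.002 over all tested genes. These counts cover only genes that passed the filter. The polysomal count and both medians include Ngfr, which could enter the test only through the METTL7A1 polysomal libraries, where it was highest. That count and those medians are therefore not a like comparison with all genes. Ltbr, the lymphotoxin beta receptor, was the most abundant, at 144 to 204 CPM in mock and 286 to 430 CPM in METTL7A1 sub-polysomal RNA, a log2 change of 0.97 (SE 0.18, adjusted p = 0.000469 by edgeR), against 0.38 (adjusted p = 0.141) in polysomal RNA. Relt was higher by 1.46 in sub-polysomal (adjusted p = 1.82e-05) and 0.56 in polysomal RNA (adjusted p = 0.0192). Cd40 was higher by 0.81 and 0.85 (adjusted p = 0.0239 and 0.0163) and Tnfrsf9, which encodes 4-1BB, by 1.11 and 0.88 (adjusted p = 0.0296 and 0.0489). Tnfrsf1b, TNF receptor 2, was higher in sub-polysomal RNA by 0.64 (adjusted p = 0.00667). Ngfr, with at most 8 counts in any mock library, was among the 4 in polysomal RNA, at 1.55. It could enter the test only through the METTL7A1 polysomal libraries, so no p-value is given for it. The remaining 14 had at most 14 counts in any library.

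Downstream of the receptors, 26 genes of adaptors, caspases and their regulators were listed and 25 tested. At an adjusted p below 0.05, 2 rose and 5 fell in METTL7A1 polysomal RNA, and 4 rose and 4 fell in the sub-polysomal pool, with medians of -0.007 and 0.084. The background shares of all tested genes were 9.69% upward and 8.28% downward for the polysomal comparison, and 16.8% upward and 14.5% downward for the sub-polysomal one; the counts of the lists that follow stand against the same shares. Casp8, the caspase that death domain receptors activate, held 57.4 to 70.5 CPM in mock and 30.0 to 31.8 CPM in METTL7A1 sub-polysomal RNA, a log2 change of -1.08 (SE 0.14, adjusted p = 2.34e-05 by edgeR). In polysomal RNA its log2 change was -0.33 (SE 0.13, adjusted p = 0.0778). Bak1 and Bax, which encode pore-forming proteins of the mitochondrial death pathway, were higher in sub-polysomal RNA. Bak1 held 112 to 176 CPM in mock and 397 to 431 CPM in METTL7A1 sub-polysomal RNA, a log2 change of 1.49 (SE 0.21, adjusted p = 5.96e-05 by edgeR), against 0.81 (SE 0.21, adjusted p = 0.0118) in polysomal RNA. Bax held 183 to 279 CPM in mock and 468 to 512 CPM in METTL7A1 sub-polysomal RNA, a log2 change of 0.98 (SE 0.18, adjusted p = 0.000514), against 0.11 (SE 0.18, adjusted p = 0.722) in polysomal RNA. Fadd, which encodes an adaptor of death domain receptors, stood at -0.007 (adjusted p = 0.983) in polysomal and 0.28 (adjusted p = 0.216) in sub-polysomal RNA by edgeR.

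Of 14 NF-kB subunits and inhibitors, all tested, 1 passed in METTL7A1 polysomal RNA, downward, and 3 rose and 1 fell in the sub-polysomal pool at the same threshold, with medians of -0.069 and 0.15. Bcl3, an atypical inhibitor family member, was called in sub-polysomal RNA at 1.72 (SE 0.43, adjusted p = 0.00568), from 1 to 9 counts in mock and 18 to 27 in METTL7A1 libraries. Of 19 listed NF-kB target genes 17 were tested, of which 9 rose and 1 fell in the polysomal comparison and 10 rose and 2 fell in the other, with medians of 0.72 in both pools. Ccl2, a monocyte chemokine, was called in both pools, with 1 to 4 counts in each mock library and 77 to 109 in each METTL7A1 library, and it could enter the test only through the METTL7A1 libraries. The counts of rises in both pools include Ccl2 and are to that extent not a like comparison with the shares of all genes. Mmp9, a matrix protease, was called in both pools, at 2.09 (SE 0.18) in polysomal and 1.96 (SE 0.18) in sub-polysomal RNA. Icam1, a leukocyte adhesion molecule, was among the 2 that fell in sub-polysomal RNA, with 4 to 8 counts per mock and at most 1 per METTL7A1 library there. It passed a call only over the mean of both pools. As it could enter the test only through the mock libraries, no p-value is given for it, and the count of falls that includes it is not a like comparison either. Of 14 p53 target genes 11 were tested; 2 rose and 1 fell in the polysomal comparison and 3 rose and 3 fell in the other, with medians of -0.10 and -0.23; Cdkn1a, which encodes the cell cycle inhibitor p21, was higher by 0.59 (adjusted p = 0.00361) and 1.03 (adjusted p = 2.29e-05).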

How the data were processed

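Counts of RNA-Seq libraries of 12 gradient pools of 4T1 cells were analysed, 3 per group. The values are raw counts per gene as deposited by the authors. For its total RNA libraries the paper describes stranded, rRNA-depleted preparation and trimming with BBDuk. It also describes alignment to mm10 with STAR and counting with featureCounts against Ensembl GRCm38. The submitters' processing notes give STAR version 2.5.3a. The paper does not describe how the libraries of the gradient pools were prepared or trimmed. How reads that match several genes, or the strand, were treated is not given in the sources used here. The 8 receptors and the gene lists were chosen with earlier results of these data known.

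A gene was tested where 3 or more libraries reached 1 CPM (12224 of 55376 genes). A model of 12 libraries with a mean for each group was fitted in R 4.3.3 by edgeR 4.0.16, after TMM scaling. Contrasts were tested with the quasi-likelihood test, with Benjamini-Hochberg adjustment over all tested genes. A call needed an adjusted p below 0.01 and a log2 change beyond 1.5, the thresholds of the study's RNA-Seq. Correlations used log2 CPM with a prior count of 2, and levels between genes used CPM per kilobase of the deposited exon length. Replicate letters were not used to pair the libraries in the main fit, although pools of 1 letter may share a gradient. They entered only an alternative fit. Intervals at 95% and p-values cover the spread between libraries, and limits from 3 counts cover counting error only.

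Named were the 8 receptors, Mettl7a1, genes of each list or within 500 kb of the cluster called between genotypes in either pool, otherwise the best known member of a list, and the 5 genes most correlated with Tnfrsf26; Bak1, Bax, Icam1 and the other tested receptors, ligands and neighbours were named after their values were seen. Exon sequences came from GENCODE M21 transcripts of GRCm38. The fit was tested on simulated counts. Alternatives were DESeq2 1.42.0, RLE factors, limma-voom (limma 3.58.1), scaling to Actb, no filter, at least 10 counts in every library, only the compared groups, an adjusted p below 0.05 with no limit on size, the replicate block, Tnfrsf22 and Tnfrsf23 summed, and leaving out each replicate. Total RNA, proteomics and other assays of the study were not analysed here. Figures were drawn with matplotlib 3.10.9.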

Additional observations from a re-analysis of the deposited data

How the results depend on the processing

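Of 91 recomputed counts of called receptors, 85 equalled the reported count or stayed within 1.5 times of it. The reported counts were 0, except for 1 between METTL7A1 pools. This figure therefore mostly repeats that receptors were not called. With an adjusted p below 0.05 and no limit on size, 1 of the 7 receptors besides Tnfrsf26 passed between genotypes in polysomal RNA, against 18% of all tested genes. In sub-polysomal RNA 4 passed, against 31.4%, and over the mean of both pools 4, against 39.3%. Between pools 1 of 8 passed in mock cells, where 5746 of 12224 genes did, and 2 of 8 in METTL7A1 cells, where 7248 did. Scaling to Actb called 1 of the 7 between genotypes in sub-polysomal RNA, where it called 447 of 12224 genes. This scaling moved the median of all genes to 0.259 there, to -0.18 between pools in METTL7A1 cells and to -0.171 for the shift. Of the recomputed log2 changes of single receptors, 486 kept their direction and side of the threshold, 15 lost an adjusted p below 0.05, 1 gained it (Tnfrsf21 between METTL7A1 pools, -0.36 with Actb scaling) 2 moved by more than 1 standard error (Tnfrsf26 between genotypes in sub-polysomal RNA, at 4.99 with Actb scaling and 5.09 without mock replicate C) and 27 turned sign; the cause was not tested. The turned values between pools were 0.0075 for Tnfrsf1a and 0.0339 for Tnfrsf10b in mock cells without a filter, and for Tnfrsf10b in METTL7A1 cells -0.0222 with DESeq2, -0.0228 with RLE factors and -0.0265 with at least 10 counts. With Actb scaling they were -0.0379 for Tnfrsf22, -0.154 for Tnfrsf23 and -0.223 for Tnfrsf10b between METTL7A1 pools, and -0.124 for Tnfrsf22 and -0.122 for Tnfrsf10b in the shift. Leaving out 1 replicate at a time, Tnfrsf23 lay between -0.0118 and 0.182 between genotypes in polysomal and between -0.0027 and 0.268 in sub-polysomal RNA, and between -0.1 and 0.284 between mock and between -0.0091 and 0.256 between METTL7A1 pools. Between mock pools Tnfrsf1a lay between -0.293 and 0.0892 and Fas between -0.466 and 0.079, and between METTL7A1 pools Tnfrsf10b lay between -0.0062 and 0.0317. In the shift Tnfrsf22 lay between -0.0202 and 0.182, Tnfrsf23 between -0.202 and 0.182 and Fas between -0.224 and 0.321. Tnfrsf26 between genotypes lay between 5.14 and 5.37 in polysomal and between 4.55 and 5.09 in sub-polysomal RNA, the highest without mock replicate C.

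The replicate letter as a block left 0 receptors called between mock pools, 1 between METTL7A1 pools and 0 for the shift, and changed no other call. Pools with the same letter may come from 1 gradient, which the labels do not state. Deviations of the pools of 1 letter correlated with r between -0.292 and 0.107. With 3 libraries per group these values cannot show whether the libraries were paired. No paired analysis was possible because the genotypes share 0 letters, for the comparisons between genotypes. At least 10 counts in every library removed Tnfrsf26 and Fas, which had 8 and 7 counts in their lowest library, so their values could not be given there; the fit of only the compared groups does not apply to the shift or to the mean of both pools. Depth limits the values of Fas and of the antisense gene, which rest on few counts.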
